A study of Mus musculus with 6 samples.

Results

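The MAP kinase cascade and the dual-specificity phosphatases (DUSP) were followed in RNA-seq of N9 microglia, a cell line of mouse microglia. The members were the protein-coding genes named Mapk, Map2k, Map3k, Map4k, Mapkapk or Dusp followed by a number, which gave 70 genes of 54532 in the deposited count table and of 22046 protein-coding genes. They comprised 13 Mapk, 7 Map2k, 18 Map3k, 5 Map4k, 3 Mapkapk and 24 Dusp genes. The rule used names alone and no measured value, but it was set with earlier results of these data known.

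Each group had 3 libraries. Control cells were left untreated, and LPS-stimulated cells received lipopolysaccharide, a component of the bacterial outer membrane, at 1 µg/ml for 6 h. The labels give no genetic change in either group, and both were cultured in the same serum-containing medium. N9 is a single immortalized line, and nothing in the labels says that the replicates came from separate cultures, so p-values measure the spread between these libraries, which may be technical.

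MAP kinases are switched on by phosphorylation in tiers. MAP4K and MAP3K enzymes receive the signal, MAP2K enzymes relay it to the MAP kinases ERK, JNK and p38, and these phosphorylate transcription factors and further kinases such as the MAPKAPK enzymes. MAP kinase phosphatases (MKP), the typical members of the DUSP family, remove the activating phosphates, and several of them are transcribed in response to the pathway they switch off, whereas atypical DUSP lack the MAP kinase docking domain. In microglia and macrophages the cascade lies downstream of the LPS receptor TLR4 and shapes cytokine transcription and mRNA stability. RNA levels say nothing on phosphorylation, which is how these enzymes are regulated in the first place.

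Total counts ranged from 16363767 to 17956772 per library, and 3 counts corresponded to between 0.161 and 0.19 CPM, the unit used here for counts scaled to a common library size. Markers of microglia and macrophages were present, with 13 of 14 above 3 counts in every library and a summed level of 2240 to 2300 CPM in control libraries and 2410 to 2470 CPM in LPS libraries. The sum hides moves both ways, since 3 of these 14 markers were up-regulated with LPS and 4 were down-regulated. The homeostatic microglial receptor gene P2ry12 was near the floor, with 5, 6 and 3 counts in control and 6, 4 and 3 in LPS libraries. Control libraries 2 and 3 stood apart from the other libraries by counts of hepatocyte genes. The 15 listed hepatocyte markers summed to 7, 311 and 503 counts in control replicates 1, 2 and 3 and to 5, 5 and 9 counts in LPS replicates 1, 2 and 3. Counts of calls for each gene family and list are therefore also given without control replicates 2 and 3, in a fit with 1 control library that is assumed to vary like the LPS libraries. Of these markers, 15 exceeded 3 counts in control replicate 2 and 13 in control replicate 3, against 0 in control replicate 1 and at most 1 in an LPS library. In addition, 4 of 6 lymphocyte markers were at 0 in every library, and summed lymphocyte counts did not exceed 3. Astrocyte markers summed to 95.3 to 97.7 CPM in control and 95.8 to 104 CPM in LPS libraries, with 1 up-regulated and 1 down-regulated. Oligodendrocyte markers summed to 45.6 to 54.2 CPM in control and 42.3 to 43.5 CPM in LPS libraries, with 0 up-regulated and 1 down-regulated. Summed neuron markers did not exceed 1.4 CPM. The part of these marker differences in the members' results was not tested, beyond leaving out control replicates 2 and 3 for the hepatocyte counts.

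Promoter sequences are shown for 4 members that rose with LPS, chosen after their values were seen, because 3 of them carry the response elements searched for and the fourth, Mapkapk2, was the highest member per length. RefSeq promoters of GRCm38.p6 were matched for 55 of the 70 members, and the 250 bases before the RefSeq start are printed 5′ to 3′ on the gene's strand. Capitals mark the cyclic AMP response element (CRE, TGACGTCA) in Dusp1 and Dusp8 and the serum response element, searched by name, in Dusp5. The Mapkapk2 window held neither these nor the AP-1 element (TGANTCA) nor the NF-kB element, searched by name. The windows are chr17:26508473-26508722 on the minus strand for Dusp1, chr7:142095285-142095534 on the minus strand for Dusp8, chr19:53528895-53529144 on the plus strand for Dusp5 and chr1:131097844-131098093 on the minus strand for Mapkapk2.
Dusp1: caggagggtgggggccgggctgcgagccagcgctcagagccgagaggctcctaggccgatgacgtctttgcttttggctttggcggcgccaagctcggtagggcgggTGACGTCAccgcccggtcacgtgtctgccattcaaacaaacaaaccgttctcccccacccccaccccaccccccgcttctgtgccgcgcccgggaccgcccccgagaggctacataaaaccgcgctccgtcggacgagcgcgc
Dusp8: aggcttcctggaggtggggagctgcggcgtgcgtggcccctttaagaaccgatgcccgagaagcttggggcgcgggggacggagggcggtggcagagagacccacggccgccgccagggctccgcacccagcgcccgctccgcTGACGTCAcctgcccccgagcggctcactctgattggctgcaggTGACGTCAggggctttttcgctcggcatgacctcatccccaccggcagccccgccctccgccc
Dusp5: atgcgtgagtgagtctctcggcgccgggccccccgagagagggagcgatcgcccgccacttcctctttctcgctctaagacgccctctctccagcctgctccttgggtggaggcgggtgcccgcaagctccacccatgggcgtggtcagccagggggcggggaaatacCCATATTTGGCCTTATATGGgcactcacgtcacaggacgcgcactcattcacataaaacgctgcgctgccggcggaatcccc
Mapkapk2: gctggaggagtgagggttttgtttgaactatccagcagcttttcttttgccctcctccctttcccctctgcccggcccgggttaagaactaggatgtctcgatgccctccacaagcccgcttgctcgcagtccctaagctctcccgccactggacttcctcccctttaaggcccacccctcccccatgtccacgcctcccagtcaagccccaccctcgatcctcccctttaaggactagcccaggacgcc

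The CRE lay at bases -143 to -136 from the start in Dusp1 and at -107 to -100 and -63 to -56 in Dusp8. In Dusp5, a pair of adjoining serum response elements lay at -82 to -73 and -72 to -63. Both strands were searched, and the first promoter listed for each gene was counted, for members and for all genes alike. The CRE was found in 3 of 55 members with a promoter (Dusp1, Dusp8 and Mapk10, which is a neuronal JNK that was not tested), against 1.62% of all 27025 promoters of this length. The serum response element was found in 1 of 55 members against 1.4% of all promoters. The AP-1 element was found in 3 members, Dusp13, Map2k6 and Map3k10, against 6.87% of all promoters, and the NF-kB element in 4 members, Dusp22, Map3k7, Map4k2 and Mapk7, against 7.01%. A further promoter was listed for 13 members. The further promoter alone held the AP-1 element in Map2k7 and the NF-kB element in Map4k1. Of 6 typical MKP that rose and had a matched promoter, 2 held the CRE and 1 the serum response element in the first promoter. The AP-1 and NF-kB elements were found in 0 of these 6. Of 10 kinase members that rose and had a matched promoter, 0 held any of these elements there. A match describes the letters of the window and shows no binding. Among the 15 members without a matched promoter were Dusp4, Dusp9, Dusp15, Dusp19, Dusp21, Dusp26, Map3k2, Map3k8, Map3k15, Map3k19, Map4k4, Mapk3, Mapk4 and Mapk15.

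The test compared LPS-stimulated N9 microglia with control cells. Of the 70 members, 60 had enough counts for the test, and 32 of them changed at an adjusted p under 0.05 (edgeR's quasi-likelihood test, Benjamini-Hochberg over 12296 tested genes). This is 53.3% of tested members, and 34.3% of all tested genes passed. Up-regulated members numbered 19, or 31.7% against 18.7% of all tested genes, and down-regulated members 13, or 21.7% against 15.7%. Under scaling to total counts in place of TMM the split was 18 up and 19 down among members and 1520 up and 3342 down among all tested genes, against 2294 up and 1927 down with TMM. Without control replicates 2 and 3, 17 members were up-regulated and 4 were down-regulated, or 28.3% against 13% of all genes tested in that fit and 6.67% against 8.89%. The share of down-regulated members thus lay above that of all genes with 6 libraries and below it without these controls. The study called a gene differentially expressed (DEG) beyond 1.5 on the log2 scale in either direction at an adjusted p under 0.05, and these thresholds were met by 2 members, Dusp1 and Map3k8, and by 2.65% of all tested genes.

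The median log2 fold change was 0.02 over the tested members and 0.004 over all tested genes, and the median absolute value was 0.25 against 0.17. Of the 32 members that changed, 19 did so by less than 0.5 on the log2 scale, or 59.4% against 65.1% of all genes that passed. An absolute log2 fold change over 1 was found in 7 tested members, or 11.7% against 5.26% of all tested genes. The 3 libraries of each group did not overlap in CPM for 37 members, or 61.7% against 45.3% of all tested genes, with LPS higher in 22 and lower in 15. Among members with a mean of at least 50 counts, 29 of 53 changed, or 54.7% against 37.9% of all tested genes with such counts. In bulk RNA a change in the cells that carry a transcript and a change in RNA per cell cannot be told apart.

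**Figure D1:**
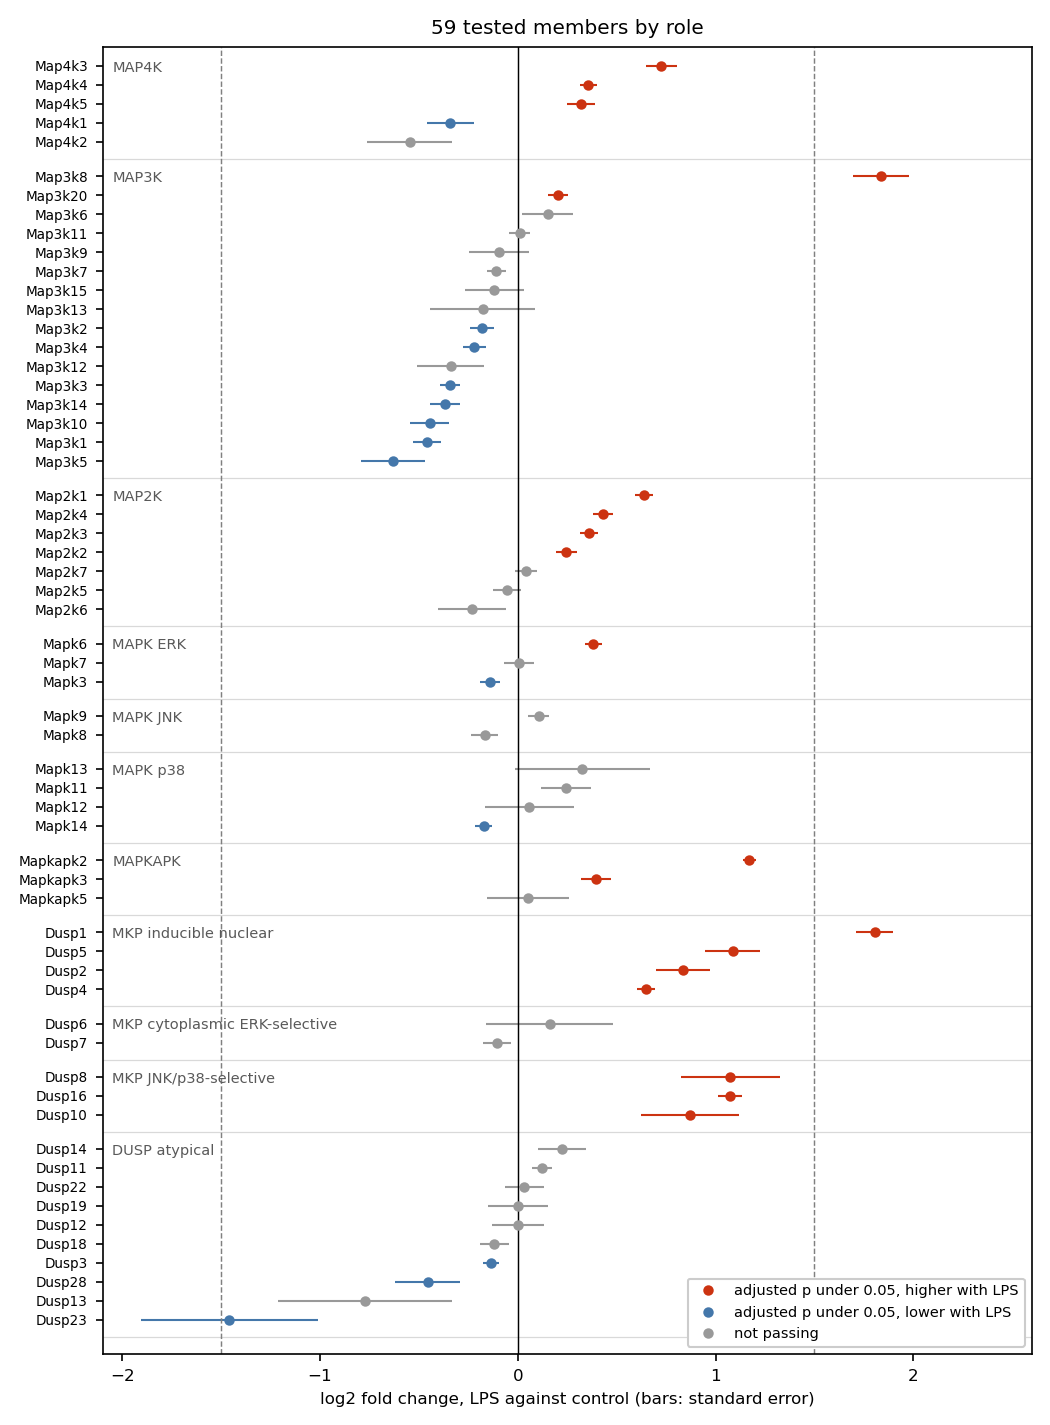
Log2 fold change of LPS against control (x axis) for 59 of the 60 tested members, one per line and grouped by role, with bars for the standard error and dashed lines at 1.5 in either direction. Red points passed the test as higher and blue points as lower, and only Dusp1 and Map3k8 lie beyond the upper dashed line.

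The summed level of the kinase members was 3010 to 3040 CPM in control libraries and 3850 to 3910 CPM in LPS libraries, and the groups did not overlap. The summed level of the Dusp genes was 673 to 680 CPM in control and 779 to 785 CPM in LPS libraries. The members together took 0.382% to 0.383% of the counts in control libraries and 0.448% to 0.453% in LPS libraries. Most of the added kinase counts were those of Mapkapk2, described with the kinases downstream of p38.

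At the top of the cascade, 3 of 5 tested MAP4K genes rose, 1 fell and 1 did not pass, beside 18.7% of all tested genes that rose and 15.7% that fell. Map4k3, a kinase also known as GLK, had 569, 658 and 653 counts in control and 850, 1070 and 913 in LPS libraries. Every LPS library lay above every control library, and the mean ± SD over 3 libraries, as given for every level below, rose from 35.2 ± 2.04 to 58.2 ± 6.13 CPM (log2 fold change 0.73, SE 0.08, edgeR adjusted p = 3.3e-06). Map4k4, which acts towards JNK, rose from 181 ± 3.32 to 232 ± 4.27 CPM (log2 fold change 0.36, edgeR adjusted p = 9.4e-06). Map4k5 rose from 35.6 ± 2.68 to 44.5 ± 1.35 CPM (log2 fold change 0.32, edgeR adjusted p = 0.0022).

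Map4k1, a haematopoietic MAP4K known as HPK1, had 195, 235 and 277 counts in control and 160, 171 and 176 in LPS libraries. Its lowest control library lay close above the LPS libraries, and its log2 fold change was -0.34 (SE 0.12, edgeR adjusted p = 0.039). DESeq2 did not call it (adjusted p = 0.1). The call was lost when any library other than control replicate 1 was left out, with an adjusted p of 0.18 without control replicate 3, and without control replicates 2 and 3 the log2 fold change was -0.12 (edgeR adjusted p = 0.64). Map4k2 stood at 7.61 ± 1.82 CPM in control and 5.21 ± 1.52 in LPS libraries, with an edgeR adjusted p of 0.063. Without control replicates 2 and 3, 3 MAP4K genes rose and 0 fell by edgeR, beside 13% and 8.89% of all genes tested in that fit.

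Among the MAP3K genes, 2 rose and 7 fell of 16 tested, or 12.5% and 43.8% against 18.7% and 15.7% of all tested genes. Without control replicates 2 and 3 the numbers were 2 and 4, or 12.5% and 25% against 13% and 8.89%. Map3k8, also called TPL2, is the MAP3K that activates MEK and ERK downstream of TLR4 and is held inactive by the NF-kB precursor p105. Its counts were 64, 59 and 78 in control and 235, 218 and 200 in LPS libraries. The lowest LPS library held more than the highest control library by a wide margin, and the level rose from 3.76 ± 0.426 to 13.5 ± 1.37 CPM. The log2 fold change was 1.84 (SE 0.14, edgeR adjusted p = 9.9e-08), the highest of the tested members and close to that of Dusp1, and it stayed between 1.74 and 1.92 in all alternatives. Map3k20, the stress and ribotoxic kinase ZAK, rose from 108 ± 4.44 to 125 ± 4.5 CPM (log2 fold change 0.20, edgeR adjusted p = 0.0044), a call lost under total-count scaling with an adjusted p of 0.1.

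The MAP3K genes that fell did so by 0.18 to 0.63 on the log2 scale. Map3k5, the stress kinase ASK1 upstream of JNK and p38, had 123, 100 and 129 counts in control and 63, 75 and 69 in LPS libraries, without overlap. It fell by 0.63 on the log2 scale (SE 0.16, edgeR adjusted p = 0.0073), from 6.6 ± 0.812 to 4.26 ± 0.294 CPM. Map3k1, the JNK-pathway kinase MEKK1, had 691, 753 and 726 counts in control and 458, 512 and 468 in LPS libraries and fell by 0.46 on the log2 scale (edgeR adjusted p = 1.2e-04). Both calls held in every alternative run.

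Map3k10, a mixed-lineage kinase, was at 30 ± 3.72 CPM in control and 22 ± 1.68 in LPS libraries (log2 fold change -0.45, edgeR adjusted p = 0.0025). Map3k14, the NF-kB-inducing kinase NIK of the noncanonical pathway, was at 33.5 ± 2.33 CPM in control and 26 ± 0.467 in LPS libraries (log2 fold change -0.37, edgeR adjusted p = 0.0015, and 0.098 without control replicates 2 and 3). Map3k3, Map3k4 and Map3k2 also fell, Map3k3 from 102 ± 2.1 to 80.3 ± 4.04 CPM.

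Map3k7 (TAK1), the MAP3K that TRAF6 engages below TLR4, did not pass. Its counts were 1742, 1878 and 1900 in control and 1474, 1539 and 1651 in LPS libraries. Its CPM did not overlap between groups, as in 45.3% of all tested genes. The log2 fold change was -0.11 (SE 0.05, edgeR adjusted p = 0.095), and it passed as lower under total-count scaling with an adjusted p of 0.0033. The other MAP3K genes that did not pass were Map3k6, Map3k9, Map3k11, Map3k12, Map3k13 and Map3k15. The table's gene spans of Map3k12 and Map3k15 overlap those of Pcbp2 and Pdha1 on the opposite strand, which had 25129 and 16454 counts over the 6 libraries against 853 and 662 for the members. That of Map3k13, with 262 counts, overlaps the pseudogene AC114990.3 on the same strand, which had 606 counts. The handling of strand was not given in the sources used here.

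In the MAP2K tier, 4 of 7 genes rose and 0 fell by edgeR at an adjusted p under 0.05, so that 57.1% rose against 18.7% of all tested genes. Map2k1 (MEK1), the direct activator of ERK, had 2315, 2406 and 2419 counts in control and 3403, 3383 and 3335 in LPS libraries. The groups were far apart relative to the spread within them, and the level rose from 134 ± 3.31 to 208 ± 6.55 CPM (log2 fold change 0.64, SE 0.04, edgeR adjusted p = 3.3e-08). Map2k2 (MEK2), its close relative, had 3798, 3346 and 3807 counts in control and 3772, 4037 and 4031 in LPS libraries. It rose by less, with a log2 fold change of 0.25 (edgeR adjusted p = 0.0023), and without control replicates 2 and 3 it was at 0.14 with an adjusted p of 0.15, which left 3 MAP2K genes up-regulated, or 42.9% against 13% of all genes tested in that fit.

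Map2k3 (MKK3), which activates p38, rose from 206 ± 10 to 264 ± 2.3 CPM (log2 fold change 0.36, edgeR adjusted p = 2e-05). Map2k4 (MKK4), which activates JNK and also p38, rose from 63.8 ± 2.02 to 85.9 ± 2.2 CPM (log2 fold change 0.43, edgeR adjusted p = 6.8e-06). Their partners in the same steps did not pass. Map2k6 (MKK6), the other p38 activator, stood at 5.11 ± 0.465 and 4.34 ± 0.503 CPM (edgeR adjusted p = 0.33), and Map2k7 (MKK7), the JNK-specific activator, at 60.9 ± 2.96 and 62.7 ± 1.28 CPM (edgeR adjusted p = 0.6). Map2k5, the activator of ERK5, was at 35.6 ± 0.607 and 34.3 ± 2.14 CPM (edgeR adjusted p = 0.59). Within the MAP2K tier, Map2k3 made up 34.5% of the summed CPM per kilobase in either group, and Map2k1 made up 21.9% in control and 26.6% in LPS libraries.

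Of 10 tested MAP kinase genes, 1 was up-regulated, 2 were down-regulated and 7 did not pass. The 30% that passed is near the 34.3% of all tested genes, and the median absolute log2 fold change was 0.15 against 0.17. Without control replicates 2 and 3, 1 was up-regulated and 0 were down-regulated by edgeR. Mapk3 (ERK1), a main ERK, stood at 74.2 ± 2.42 CPM in control and 67.3 ± 2.4 CPM in LPS libraries. It passed narrowly with a log2 fold change of -0.14 (edgeR adjusted p = 0.047) and lost the call in 7 of 16 alternatives. Mapk6 (ERK3), an atypical MAP kinase, had 4330, 4687 and 4914 counts in control and 5468, 5612 and 5448 in LPS libraries. It rose from 261 ± 7.11 to 340 ± 7.63 CPM, a log2 fold change of 0.38 (SE 0.04, edgeR adjusted p = 3.8e-06). Mapk7 (ERK5) had a log2 fold change of 0.01 (edgeR adjusted p = 0.95).

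Of the p38 genes, Mapk14 (p38 alpha) fell slightly. Its counts were 2569, 2655 and 2823 in control and 2112, 2233 and 2155 in LPS libraries, or 151 ± 0.976 and 134 ± 2.48 CPM, with a log2 fold change of -0.17 (SE 0.04, edgeR adjusted p = 0.0054, and 0.094 without control replicates 2 and 3). Mapk14 still made up 89.2% of the summed p38 CPM per kilobase in control and 86.4% in LPS libraries. Mapk11, Mapk12 and Mapk13 had mean levels under 10 CPM and did not pass. Of the JNK genes, Mapk8 (JNK1) stood at 35.2 ± 0.833 CPM in control and 31.4 ± 1.19 in LPS libraries (edgeR adjusted p = 0.072, and 0.0059 under total-count scaling). Mapk9 (JNK2) stood at 55.4 ± 0.519 and 59.6 ± 2.2 CPM (edgeR adjusted p = 0.14). For both JNK genes the libraries of the groups did not overlap in CPM, Mapk8 being lower and Mapk9 higher with LPS. The same lack of overlap was found in 45.3% of all tested genes.

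**Figure D2:**
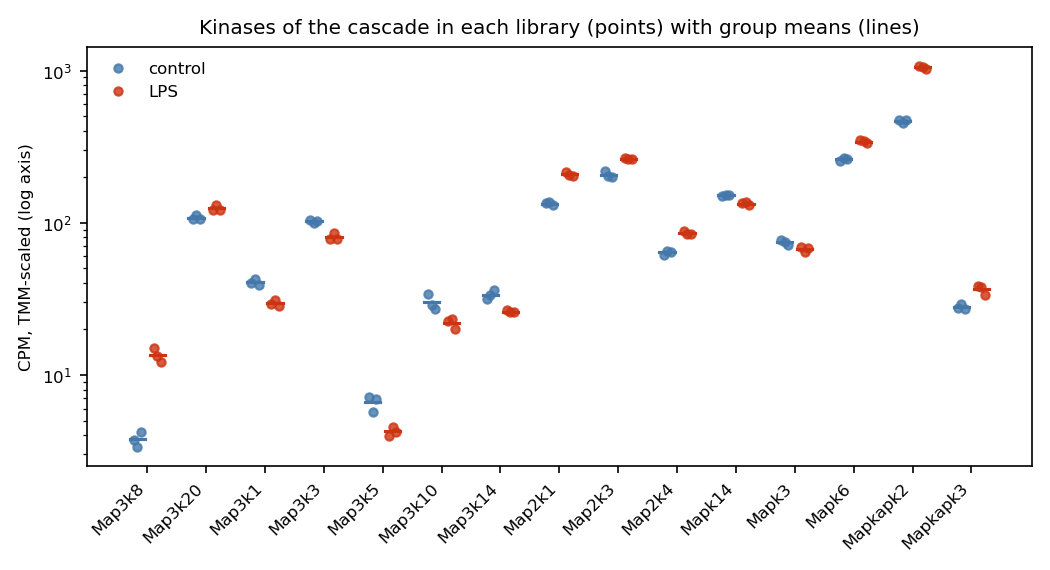
CPM on a log axis (y) of 15 kinase members (x), with a point for each of the 3 control (blue) and 3 LPS (red) libraries and a line at each group mean. Map3k8 and Mapkapk2 show the widest gaps between groups, whereas the gaps of Mapk14 and Mapk3 are small.

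Mapkapk2 (MK2) is the kinase through which p38 stabilizes mRNAs of cytokines such as TNF. Its counts were 8156, 8027 and 8768 in control and 16850, 17320 and 16988 in LPS libraries. The LPS libraries lay within a narrow band far above the control libraries, and the level rose from 468 ± 11.1 to 1050 ± 17 CPM (log2 fold change 1.17, SE 0.03, edgeR adjusted p = 1.4e-12). Its log2 fold change ranged from 1.07 to 1.18 over the alternatives. Per length it was the highest of the members in both groups, at 154 CPM per kilobase in control and 346 in LPS libraries, and the next, Map2k3, was at 62.2 and 79.7 CPM per kilobase.

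Mapkapk3 (MK3), the close relative of MK2, rose from 27.8 ± 1.07 to 36.6 ± 2.65 CPM (log2 fold change 0.40, edgeR adjusted p = 8.3e-04). In this family 2 of 3 tested genes rose, also without control replicates 2 and 3, beside 18.7% of all tested genes with 6 libraries and 13% without those controls. Mapkapk5 was at 3.33 ± 0.504 and 3.45 ± 0.479 CPM and did not pass (edgeR adjusted p = 0.88). Mapkapk2 made up 96.2% of the summed Mapkapk CPM per kilobase in control and 97.8% in LPS libraries.

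**Figure D3:**
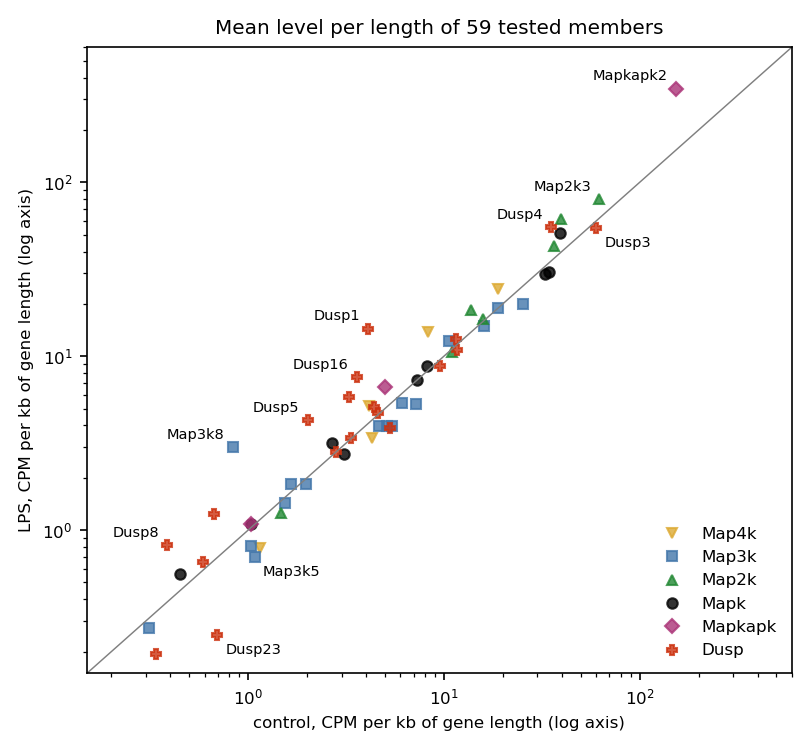
Mean CPM per kilobase of gene length in control (x) and LPS libraries (y), both on log axes, for 59 of the 60 tested members, with a symbol for each gene family and a line of equal levels. Mapkapk2 is highest in both groups, and Dusp1, Dusp16, Dusp5, Dusp8 and Map3k8 lie above the line in the lower part of the range.

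Among the phosphatases, the members that rose were all typical MKP and the members that fell were all atypical DUSP. Of 9 tested typical MKP, 7 rose and 0 fell by edgeR, and the median log2 fold change was 0.87. Of 10 tested atypical DUSP, 0 rose and 3 fell by the same test, and the median was -0.06. Of all tested genes 18.7% rose and 15.7% fell, and the 30% of atypical DUSP that passed in either direction is near the 34.3% of all tested genes. The classes follow textbook roles and were set with earlier results of these data known. The difference between these classes was described and not tested. The summed typical MKP level was 187 to 199 CPM in control and 315 to 321 CPM in LPS libraries. Without control replicates 2 and 3, 6 typical MKP rose and 0 atypical DUSP fell, beside 13% and 8.89% of all genes tested in that fit.

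All 4 inducible nuclear MKP rose. Dusp1 (MKP-1), the immediate early phosphatase of p38 and JNK, lies at chr17:26505590-26508519 on the minus strand in the table (mm10). It had 199, 170 and 223 counts in control and 598, 670 and 616 in LPS libraries. The lowest LPS library lay far above the highest control library. The level rose from 11.1 ± 1.27 to 38.8 ± 1.83 CPM, a log2 fold change of 1.80 (SE 0.09, edgeR adjusted p = 1e-09). It ranged from 1.71 to 1.86 over the alternatives, and the CRE of its promoter is printed above.

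Dusp5, a nuclear phosphatase selective for ERK and the member with the serum response elements, had 84, 77 and 106 counts in control and 171, 166 and 179 in LPS libraries. It rose from 4.99 ± 0.673 to 10.6 ± 0.432 CPM (log2 fold change 1.09, SE 0.14, edgeR adjusted p = 2.1e-05). Dusp2 (PAC-1), which is enriched in activated leukocytes, had 135, 100 and 114 counts in control and 194, 186 and 188 in LPS libraries. The groups did not overlap, although control replicate 1 lay nearer to the LPS libraries than the other controls, and the log2 fold change was 0.84 (SE 0.14, edgeR adjusted p = 2.5e-04).

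Dusp4 (MKP-2) had 1600, 1709 and 1851 counts in control and 2368, 2493 and 2495 in LPS libraries. It rose from 96.6 ± 3.09 to 151 ± 1.09 CPM (log2 fold change 0.65, SE 0.04, edgeR adjusted p = 2.5e-08), the smallest rise among the inducible nuclear MKP. Per length it was the most abundant of them in both groups, at 35.3 CPM per kilobase in control and 55.2 in LPS libraries. Its share of the summed CPM per kilobase of these 4 genes was 79% ± 2.16 in control and 69.3% ± 0.427 in LPS libraries, and that of Dusp1 was 9.19% ± 0.849 and 18% ± 0.724 (SD, n = 3).

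The 3 MKP selective for JNK and p38 rose as well. Dusp16 (MKP-7), which acts on JNK, had 475, 507 and 517 counts in control and 948, 947 and 977 in LPS libraries. The LPS values formed a tight cluster well above those of control, and the level rose from 28.1 ± 0.562 to 59.1 ± 1.21 CPM (log2 fold change 1.07, SE 0.06, edgeR adjusted p = 2.1e-09). Dusp8, named outside the rule after its values were seen, had 24, 39 and 38 counts in control and 49, 78 and 67 in LPS libraries. Its log2 fold change was 1.07 with a wide standard error of 0.25 (edgeR adjusted p = 0.0038), and its promoter holds the CRE at both positions given above. Dusp10 (MKP-5) had 42, 31 and 36 counts in control and 67, 70 and 45 in LPS libraries, with LPS replicate 3 close to control. Its log2 fold change was 0.87 (SE 0.25, edgeR adjusted p = 0.014), and the call was lost when control replicate 2 (adjusted p 0.052), control replicate 3 (0.052), LPS replicate 1 (0.059) or LPS replicate 2 (0.071) was left out. Without control replicates 2 and 3 together its adjusted p was 0.25.

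Of the cytoplasmic MKP selective for ERK, 0 of 2 tested passed by edgeR at an adjusted p under 0.05. Dusp6 (MKP-3), often used as a transcriptional readout of ERK activity, had 42, 31 and 25 counts in control and 41, 38 and 21 in LPS libraries, and the groups overlapped. Its log2 fold change was 0.16 (SE 0.32, edgeR adjusted p = 0.74), and the sign turned in 3 of 16 alternatives. Dusp7 (MKP-X) was better counted, with 688, 638 and 773 counts in control and 583, 608 and 586 in LPS libraries, and had a log2 fold change of -0.10 (SE 0.07, edgeR adjusted p = 0.28). Dusp9 had at most 8 counts in any library and was not tested.

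**Figure D4:**
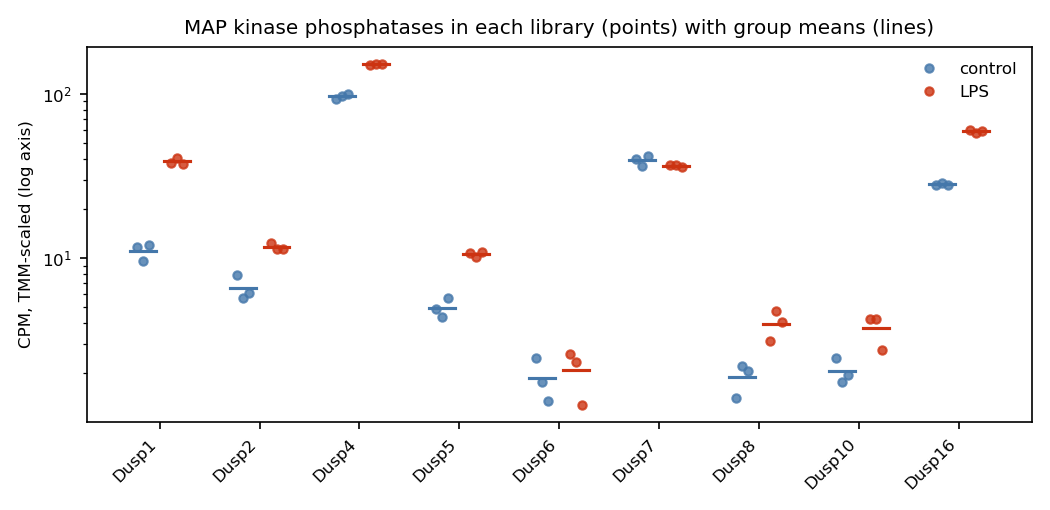
CPM on a log axis (y) of the 9 tested typical MKP (x), with a point for each of the 3 control (blue) and 3 LPS (red) libraries and a line at each group mean. The groups are apart for Dusp1, Dusp2, Dusp4, Dusp5, Dusp8, Dusp10 and Dusp16 and overlap for Dusp6 and Dusp7.

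Among the atypical DUSP, Dusp3 (VHR), a small phosphatase of ERK and JNK, was the most abundant per length, at 59.9 CPM per kilobase in control and 54.5 in LPS libraries. Its counts were 4830, 4945 and 5178 in control and 4021, 4166 and 4222 in LPS libraries, and its log2 fold change was -0.13 (SE 0.04, edgeR adjusted p = 0.016, and 0.052 without LPS replicate 2). Dusp28 had 110, 122 and 140 counts in control and 67, 100 and 80 in LPS libraries (log2 fold change -0.46, SE 0.16, edgeR adjusted p = 0.045, DESeq2 adjusted p = 0.12). That call was lost without control replicate 2, control replicate 3, LPS replicate 1 or LPS replicate 3, with adjusted p of 0.08, 0.15, 0.15 and 0.11.

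Dusp23, named after its values were seen, had 21, 12 and 19 counts in control and 7, 6 and 4 in LPS libraries. Its log2 fold change of -1.46 carried a standard error of 0.45 (edgeR adjusted p = 0.02), and the call was lost when control replicate 1 (adjusted p 0.08), control replicate 3 (0.063), LPS replicate 2 (0.064) or LPS replicate 3 (0.086) was left out. DESeq2 did not call it either. Dusp11, Dusp12, Dusp13, Dusp14, Dusp18, Dusp19 and Dusp22 did not pass. The span of Dusp19 overlaps Nup35 on the same strand and that of Dusp13 overlaps Samd8 on the opposite strand. Counts of these members could be affected where the genes share counted sequence. Spans were compared from gene start to gene end, so such sharing was not tested. The members without a test were Dusp9, Dusp15, Dusp21, Dusp26, Dusp27, Map3k19, Map3k21, Mapk4, Mapk10 and Mapk15, with at most 8 counts in any library, and Dusp21 and Dusp26 were at 0 in all 6 libraries.

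Genes of the pathway outside the naming rule were read from 6 lists of textbook partners, to be set beside the 18.7% of all tested genes that rose and the 15.7% that fell, or 13% and 8.89% without control replicates 2 and 3. Of the adaptors and kinases that link TLR4 to the MAP3K tier, 5 of 15 tested rose and 0 fell by edgeR, against 4 and 1 without control replicates 2 and 3 and 4 and 2 under total-count scaling. Nfkb1, which encodes the p105 protein that binds Map3k8, rose from 87.7 ± 0.856 to 225 ± 7.35 CPM (log2 fold change 1.36, edgeR adjusted p = 5e-12). Ikbkb, the kinase that acts on p105, rose from 71.8 ± 1.32 to 93.7 ± 0.787 CPM (log2 fold change 0.38, edgeR adjusted p = 9.3e-06).

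Of the RAS adaptors, RAF kinases and scaffolds, 2 of 18 tested rose, 4 fell and 12 did not pass. The number that fell was 1 without control replicates 2 and 3, 1 with DESeq2, 2 without any filter and 7 under total-count scaling, and it was 2 without control replicate 1, 2 or 3 and 1 without LPS replicate 2 or 3. The number that rose was 1 with DESeq2, total-count scaling or robust dispersion. The scaffolds Iqgap1 and Spag9 rose with log2 fold changes of 0.25 and 0.23 (edgeR adjusted p = 0.0066 and 0.002). That of Iqgap1 ranged from 0.156 to 0.309 with 1 library left out and from 0.152 to 0.432 over all alternatives. The RAS exchange factor Sos1 fell by 0.25 on the log2 scale (edgeR adjusted p = 0.011). Iqgap1 lost its call with DESeq2, total-count scaling and robust dispersion, and Sos1 without LPS replicate 3 and without control replicates 2 and 3, at adjusted p up to 0.15 and 0.19.

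Of the ERK feedback and output genes, 2 of 8 tested rose and 5 fell. The number that fell was 3 without control replicate 2, control replicate 3 or LPS replicate 3, and 1 without control replicates 2 and 3. The number that rose was 2 in that fit and 1 under total-count scaling. Spred1, an inhibitor of RAS signaling, rose with a log2 fold change of 0.21 (edgeR adjusted p = 0.0031, and 0.079 under total-count scaling). The ERK-induced transcription factor Etv5 had 719, 780 and 815 counts in control and 333, 434 and 328 in LPS libraries and fell by 0.94 on the log2 scale (edgeR adjusted p = 1.3e-06), and Etv4 fell by 0.74 (edgeR adjusted p = 0.0026, and 0.052 without control replicates 2 and 3). The list also held a DEG, Phlda1, with 13, 14 and 9 counts in control and 53, 84 and 86 in LPS libraries (named outside the rule, with its values known).

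Of the stress kinases and activators, 5 of 8 tested rose and 0 fell by edgeR, against 3 and 0 without control replicates 2 and 3. Among them were Gadd45g and Gadd45b, which activate the MAP3K Map3k4. Gadd45g rose from 2.85 ± 0.409 to 6.97 ± 0.883 CPM (log2 fold change 1.29, edgeR adjusted p = 5.6e-05) and Gadd45b from 40.6 ± 2.44 to 64.3 ± 2.93 CPM (log2 fold change 0.66, edgeR adjusted p = 8.6e-07). Of the other kinases activated by MAP kinases, 3 of 7 rose and 2 fell, and without control replicates 2 and 3 the numbers were 2 and 2. Rps6ka2 (RSK3) rose from 55.9 ± 2.52 to 102 ± 2.87 CPM, and Rps6ka5 (MSK1) fell from 9.88 ± 0.209 to 4.55 ± 0.349 CPM (edgeR adjusted p = 4e-09 and 1.2e-05), whereas Rps6ka4 (MSK2) rose and Rps6ka1 (RSK1) fell with log2 fold changes of 0.42 and -0.28. Of the other phosphatases of MAP kinases, 2 of 9 rose and 0 fell by edgeR, also without control replicates 2 and 3, and 4 rose without any filter or with a replicate block. The 2 genes were Ptpn5 (log2 fold change 0.83, edgeR adjusted p = 3.8e-04) and the catalytic subunit gene Ppp2ca (0.28, edgeR adjusted p = 1.7e-04).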

How the data were processed

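RNA-seq libraries of 3 control and 3 LPS samples of N9 microglia were taken from the count table that the authors deposited, which holds whole-number read counts for 54532 genes without normalization, with gene position, length and biotype. The submitters' processing notes name featureCounts 1.5.0-p3 and the mm10 build. The aligner, annotation release and strand setting were not given in the sources used here. All 70 member IDs were found in GENCODE M21, 67 with the same position. The table of the authors' own DESeq2 comparison (fold changes and p-values) was not used, nor its 18 per-sample and 2 group-mean columns.

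Counts were tested with edgeR 4.0.16 in R 4.3.3 (filterByExpr, TMM, glmQLFit, glmQLFTest, prior count 0.125, Benjamini-Hochberg over 12296 genes). CPM are TMM-scaled and relative to counts in tested genes. Levels between genes were compared as CPM per kilobase of the table's gene length. Total counts were 16363767 to 17956772. Intervals between replicates rest on n = 3. The test was also run on simulated counts with this comparison's libraries, for 12331 tested genes. There edgeR recovered 92 of 99 genes changed by 1 and 100 of 100 changed by 2 on the log2 scale, with 7 false calls. The simulation gave every gene the same dispersion and changed 200 genes, as many up as down. Changes under 1 on the log2 scale were not simulated, so it does not show how well such changes are called.

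The members, classes and lists were chosen with earlier results of these data known. Named members were those called DEG, up to 4 each way per gene family with the largest change, 50 or more counts on average and no overlap between the groups, and 24 members fixed by name, and up to 2 each way per partner list. Members and partners named beyond these were added with their values known, and some genes are not reported here. Alternatives were DESeq2 1.42.0, RLE and total-count scaling, no filter, a filter at a mean of 10 counts, a prior count of 2, robust dispersion, glmTreat, protein-coding genes alone, a replicate block, leaving out single libraries, and leaving out control replicates 2 and 3. Motifs were searched on both strands in RefSeq promoters (GRCm38.p6), and figures were drawn with matplotlib 3.10.9.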

Additional observations from a re-analysis of the deposited data

How the results depend on the processing

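The number of up-regulated members was 17 to 20 in every alternative. The number of down-regulated members, 13, was 8 with DESeq2, 8 to 11 with 1 library left out and 4 without control replicates 2 and 3, when fewer samples entered. With a replicate block 20 members rose and 14 fell. Libraries with the same number correlated in their deviations from the group means at 0.135, 0.0504 and 0.0118, so the numbers were not taken as pairs. With glmTreat 1 member was called DEG. Atypical DUSP that fell numbered 1 with DESeq2, 1 to 2 with 1 library left out and 0 without control replicates 2 and 3, and MAP3K that fell numbered 4 in that last fit. The median log2 fold change of the tested members, 0.02, was -0.077 under total-count scaling, which moved the median of all tested genes from 0.004 to -0.095, and -0.038 to 0.066 with 1 library left out. It was -0.038 without control replicate 3. Dusp6 turned to -0.248 without control replicates 2 and 3 and ranged from -0.037 to 0.413 with 1 library left out. Map2k7 turned to -0.056 under total-count scaling and -0.032 without control replicates 2 and 3. Beyond the change in scaling or in sample number, the cause was not tested. Of 36 members followed, 21 were the same in every alternative, 13 lost or gained a call with the direction kept and 2 turned. At this depth the 10 members with at most 8 counts in any library were not tested.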
